A study of Rattus norvegicus with 10 samples.

Results

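The enzymes and carriers that take glucose to pyruvate, and pyruvate through the pyruvate dehydrogenase (PDH) complex and the tricarboxylic acid (TCA) cycle, were examined in sorted adult rat β-cells after silencing of Scrt1. The members were a list of 44 genes chosen by function, with earlier results of these data known. In the deposited table, 41 were found under the listed symbol, Pcx under the symbol Pc and Idh3b under Idh3B. These 43 genes, out of 23918 genes in the table, are described here, and Ogdh is not analysed here. All 43 passed the filter on low values that left 12941 genes for testing.

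Islets of adult Sprague-Dawley rats were dispersed, and β-cells were sorted by their autofluorescence. Scrt1, a zinc finger transcriptional repressor, was silenced in these cells with pooled siRNAs (siScrt1), control cells received a negative control siRNA (siCtrl), and RNA was extracted 48 h later. Both groups came from unmodified animals, were plated on matrix secreted by rat bladder cancer cells and received the same transfection reagent. Each group had 5 libraries, named siCtrl 1 to 5 and siScrt1 A to E. The labels do not say whether the libraries of a group came from separate animals, so p-values measure the spread between these libraries, which may be partly technical. The deposited values are scaled estimated counts (reads assigned to a gene, rescaled between libraries) and scaled TPM (abundance relative to transcript length and library total). Values by library are given as scaled counts, and levels of different genes are compared as scaled TPM.

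In β-cells, glucose enters through the transporter Slc2a2 (GLUT2) and is broken down to pyruvate in the cytosol. Little pyruvate is made into lactate, since lactate dehydrogenase A and the plasma membrane monocarboxylate transporter are kept low, and pyruvate enters the mitochondria to be oxidised or carboxylated. ATP from its oxidation closes potassium channels and leads to insulin release. The dihydrolipoamide dehydrogenase Dld is the flavoprotein that reoxidises the lipoyl groups of the PDH, α-ketoglutarate dehydrogenase (OGDH) and branched-chain α-ketoacid dehydrogenase (BCKDH) complexes, and it is also the L protein of the glycine cleavage system.

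Library depth, recovered from the values, ranged from 12975086 to 16452119 reads in siCtrl and from 11901342 to 17444034 in siScrt1. The 7 β-cell markers found summed to 331643 to 613690 scaled TPM in siCtrl and 385416 to 538324 in siScrt1, led by Ins1. All 7 acinar markers and the 4 endothelial markers found were under 1 scaled TPM on average. The α-cell markers summed to 205 to 626 in siCtrl and 223 to 507 in siScrt1, almost all of it Gcg, the δ- and PP-cell markers to 45.3 to 193 and 59.5 to 215, led by Sst, and the duct markers to 109 to 161 and 132 to 159, led by Krt7. Scrt1 had 215, 156, 213, 250 and 166 scaled counts in siCtrl 1 to 5 and 83.3, 62.3, 63.1, 30.5 and 22.8 in siScrt1 A to E. The groups did not overlap, and every library matched its label (log2 fold change -2.06, SE 0.308, limma adjusted p = 0.00618).

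Of the 43 members, Dld passed the test and was lowered in siScrt1, and no other member did (limma, adjusted p under 0.05). This fit compared the groups alone. With the number of each library within its group as a block, described below, Fh passed as well (limma adjusted p = 0.00878). Over all genes tested, 1.05% passed and 0.680% passed as lowered, against 1 of 43 members. At an unadjusted p under 0.05 there were 3 members, Dld, Fh and Pdhb, all lower in siScrt1, where 11.1% of all genes reached that level. The log2 fold change was negative for 28 of the 43 members, or 65.1%, and for 49.0% of all genes. Library siCtrl 3 was the highest of its group for 27 of the 43 members, and its part in this count was not tested. The sign of Idh2, which was near 0, also changed with the scaling. The median log2 fold change was -0.04 over the members and 0.0035 over all genes. For the 42 members without a call in the fit by group alone, Fh among them, the estimates lay between -0.41 and 0.21. Of these, 41 were within 0.25 of no change. Their 95% confidence intervals all stayed within 1 on the log2 scale, and 39 stayed within 0.5. A 2-fold change of any of these members was thus outside its interval. The members' scaled counts had a median SD between libraries of 0.16 (log2) in siCtrl and 0.11 in siScrt1, beside 0.19 and 0.16 over all genes.

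**Figure D1:**
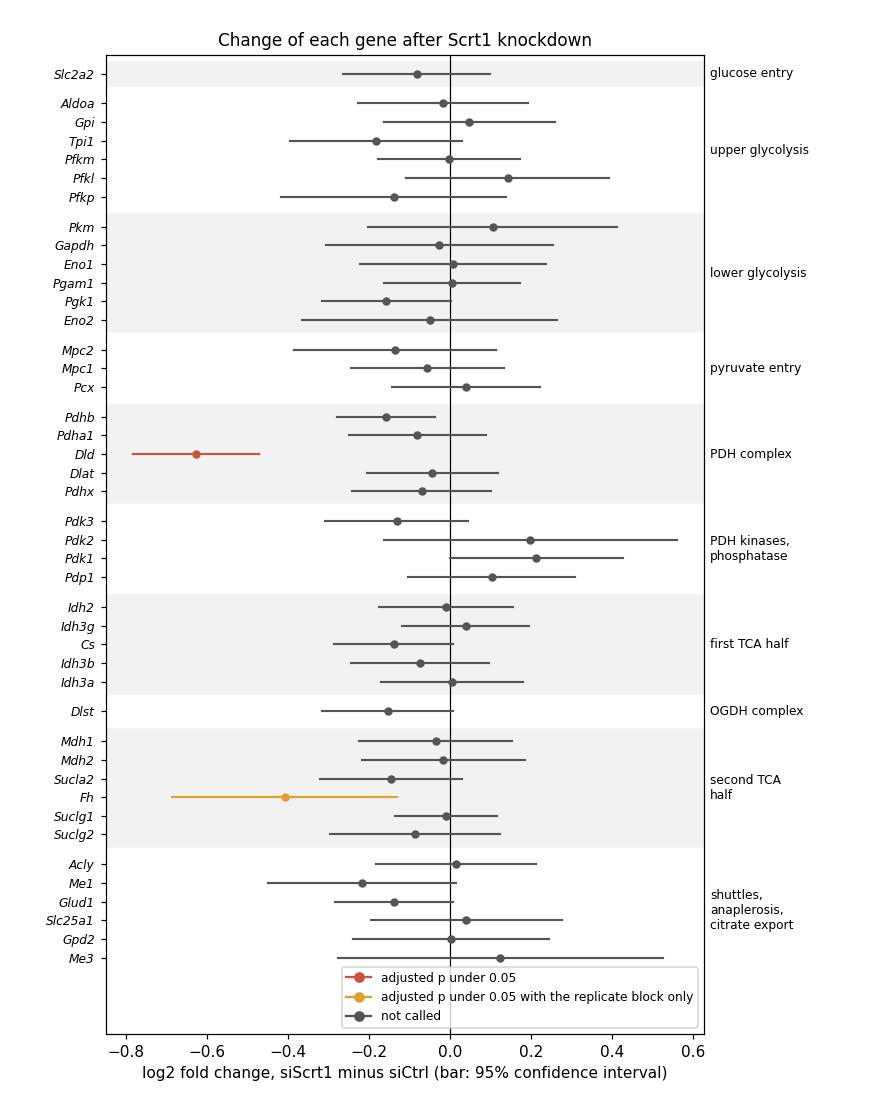
Log2 fold change of the scaled counts of each member, siScrt1 minus siCtrl, with its 95% confidence interval, grouped by step along the right. Dld stands at -0.63, Fh at -0.41, and the other 41 members lie within 0.25 of 0.

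The members spanned a 205-fold range of levels per length. In siCtrl, 9 of the 43 genes were above 100 scaled TPM and 5 were below 10. Slc2a2 had the highest level, with 915 ± 80.0 scaled TPM, followed by the pyruvate kinase Pkm with 881 ± 174 and the cytosolic malate dehydrogenase Mdh1 with 783 ± 84.6 (SD, 5 libraries each). The SD of Pkm took in the means of the other two, while Slc2a2 was above Mdh1 in 5 of 5 siCtrl libraries. The lowest were Pdp1, a PDH phosphatase, with 4.47 ± 0.417, and the mitochondrial malic enzyme Me3 with 5.09 ± 1.50 (SD, 5 libraries each). Together the members summed to 5954 ± 596 scaled TPM in siCtrl and 5853 ± 366 in siScrt1 (SD, 5 libraries each), a difference smaller than the SD of either group.

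**Figure D2:**
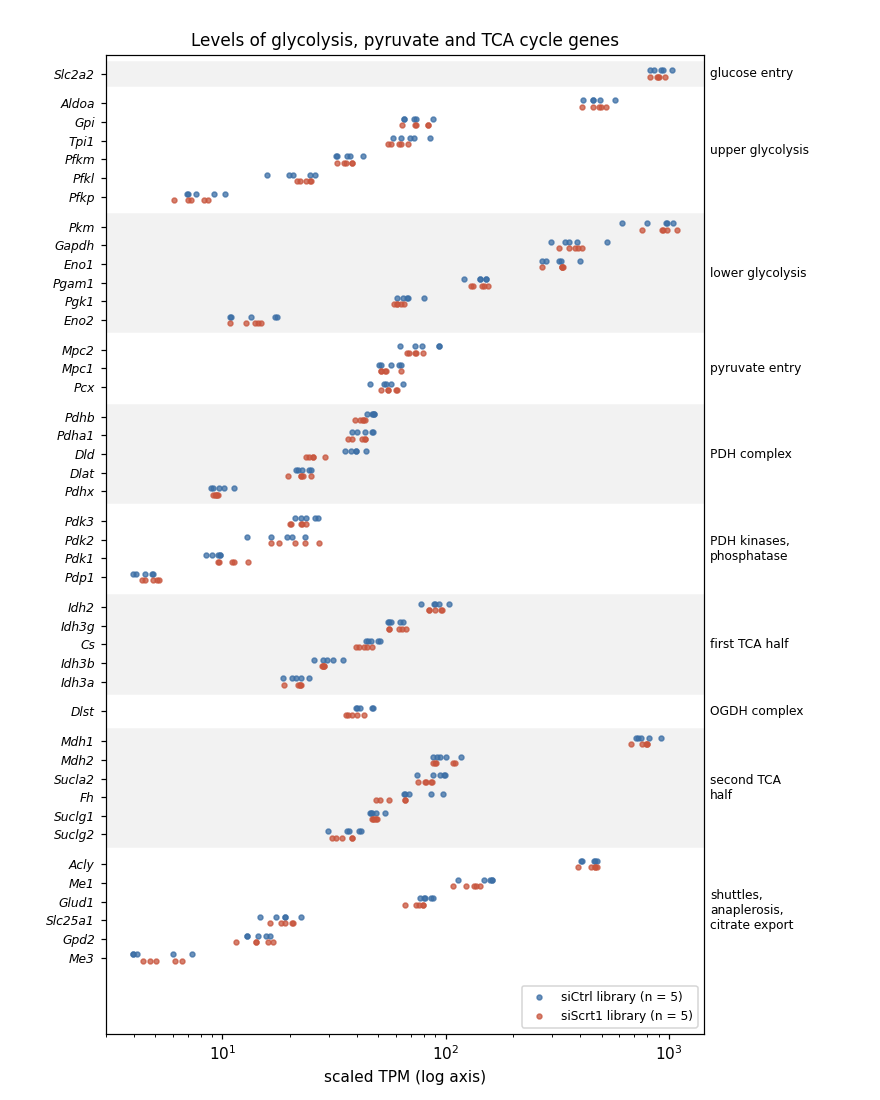
Scaled TPM of each member in each library on a log axis, grouped by step and ordered by the siCtrl level. Levels run from 4.47 for Pdp1 to 915 for Slc2a2 in the siCtrl means, and the siScrt1 points of Dld lie to the left of its siCtrl points.

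The PDH complex joins pyruvate to coenzyme A. Pdha1 and Pdhb form its decarboxylating dehydrogenase, Dlat is the acetyltransferase core that carries lipoyl groups, and Pdhx anchors Dld to this core. Dld had 1539, 1707, 1544, 1463 and 1377 scaled counts in siCtrl 1 to 5 and 1109, 985, 988, 945 and 913 in siScrt1 A to E. Every siScrt1 library was below every siCtrl library, and siScrt1 A was the highest of its group. In scaled TPM, Dld fell from 39.2 ± 3.12 to 25.5 ± 1.95 (SD, 5 libraries each). The log2 fold change was -0.63 (SE 0.072, 95% interval -0.78 to -0.47, limma adjusted p = 0.00155), a reduction of 35.2%, and Dld ranked 8 of 12941 genes by p. The list was drawn up with this fall already known, so the call is not independent evidence. In these bulk libraries, fewer cells that express a gene and less RNA per cell cannot be told apart. The table held 1 Dld transcript, of 2610 bases, and its reads were whole numbers in all 10 libraries, so no reads appeared to be divided with another sequence. That transcript also passed the test across transcripts (adjusted p = 0.00608), where 0.415% of all transcripts passed. It was the 1 transcript called among the 60 tested of the members.

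The partner subunits moved less. Pdhb had 1081, 1209, 1208, 1146 and 1191 scaled counts in siCtrl and 1070, 982, 1053, 1071 and 1054 in siScrt1. The groups did not overlap, though siCtrl 1 was only just above siScrt1 D, and the change was small (log2 fold change -0.16, SE 0.056, limma adjusted p = 0.286). Non-overlap held for 2 of the 43 members, Dld and Pdhb, and for 3.51% of all genes. Pdha1 had 1977, 1975, 1838, 1600 and 1687 scaled counts in siCtrl and 1824, 1839, 1762, 1609 and 1537 in siScrt1, with a log2 fold change of -0.08. Its reads were fractional in every library, as kallisto divides reads among the sequences they match. Dlat had 839, 947, 974, 827 and 884 in siCtrl and 755, 871, 957, 890 and 869 in siScrt1, with a log2 fold change of -0.04. Pdhx had 279, 288, 309, 357 and 325 in siCtrl and 293, 297, 288, 297 and 302 in siScrt1, with a log2 fold change of -0.07. For Pdha1, Dlat and Pdhx the groups overlapped broadly and the adjusted p-values were 0.745, 0.878 and 0.788 (limma).

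Dlst, the succinyltransferase core of the OGDH complex, had 1644, 1674, 1972, 1716 and 1938 scaled counts in siCtrl and 1580, 1671, 1792, 1484 and 1508 in siScrt1. The siScrt1 libraries lay lower on the whole but overlapped with siCtrl 1, 2 and 4 (log2 fold change -0.15, SE 0.075, limma adjusted p = 0.473). Dlst reads were whole in 1 of the 10 libraries.

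The change of Dld relative to each partner was tested as the log2 difference within a library, log2(Dld) minus log2(partner), in scaled counts. Relative to Pdha1 it went from -0.25 ± 0.09 in siCtrl to -0.79 ± 0.07 in siScrt1 (SD, 5 libraries each). Against the 4 PDH partners and Dlst the shift was between -0.47 and -0.58, the groups did not overlap, and the difference was lower in siScrt1 in 5 of 5 same-number pairs. The exact two-sided permutation p was 0.00794 for each, the smallest that 5 against 5 libraries can give, or 0.0106 after Benjamini-Hochberg adjustment over the 8 partners tested. Since Dld had been singled out for its fall, these p-values are not independent evidence of it. Among the partners the shift was smallest relative to Dbt, which was itself lowered. Its test does not show that Dld and Dbt changed equally. Relative to Dbt, the lipoyl-carrying acyltransferase core of BCKDH, the shift was -0.16, from 0.90 ± 0.17 to 0.74 ± 0.13 (SD, 5 libraries each; p = 0.127 and adjusted p = 0.127, exact permutation). Relative to the BCKDH dehydrogenase subunits the shift was -0.70 for Bckdha (adjusted p = 0.0106, exact permutation) and -0.49 for Bckdhb, whose groups overlapped (adjusted p = 0.0363, exact permutation). With sign changes within the same-number pairs the smallest p that 5 pairs allow is 0.0625, which was reached for 7 of the 8 partners.

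Per length, there were 0.913 ± 0.055 Dld transcripts for each Pdha1 transcript in siCtrl and 0.625 ± 0.031 in siScrt1 (SD, 5 libraries each, ratio of scaled TPM). For each Dlst transcript there were 0.921 ± 0.131 and 0.660 ± 0.061, and for each Dlat transcript 1.70 ± 0.128 and 1.14 ± 0.182 (SD, 5 libraries each). The mean for Dlat thus stayed above 1 in siScrt1, but within 1 SD of it. In scaled TPM, siScrt1 A had 28.7 for Dld and 19.6 for Dlat. siScrt1 B to E had 25.4, 25.5, 24.3 and 23.6 for Dld against 22.5, 24.8, 23.0 and 22.5 for Dlat. The means for Pdha1 and Dlst were below 1 in both groups.

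**Figure D3:**
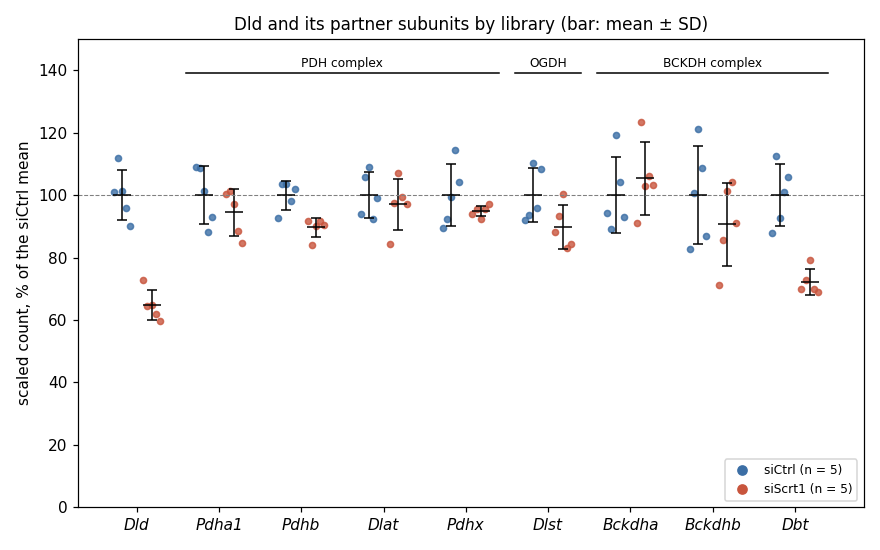
Scaled counts of Dld and its partner subunits in each library, as a percentage of the siCtrl mean of the gene; points are libraries and bars are the mean ± SD of 5 libraries. All siScrt1 points of Dld, Dbt and, by a small margin, Pdhb lie below all their siCtrl points, while those of Pdha1, Dlat, Pdhx, Dlst, Bckdha and Bckdhb overlap.

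Scrt1 belongs to the Snail superfamily, whose members bind the E-box core CAGGTG, so the promoters of the members were read for these letters. RefSeq promoters of build GRCr8, 250 bases before and 50 after a start site, were matched for 39 of the 43 members. The 250 bases before the start of Dld (chr6:53652348-53652597, minus strand), shown because Dld carried the call, hold no CAGGTG on either strand:
Dld: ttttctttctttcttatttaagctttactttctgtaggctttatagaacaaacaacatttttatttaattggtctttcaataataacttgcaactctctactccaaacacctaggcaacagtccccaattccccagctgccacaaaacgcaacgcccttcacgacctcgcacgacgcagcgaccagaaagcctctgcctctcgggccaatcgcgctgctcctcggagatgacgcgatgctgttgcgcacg
The letters were present on 1 strand or the other for 7 of the 39 matched members, or 17.9%, beside 20.1% of all 27457 gene symbols with a promoter. A match is a description of the letters and not a binding site. The surroundings are shown 5′ to 3′ on the strand of the gene with the E-box in capitals, for these 7 members and for Vhl, the only called gene of the neighbouring lists that had it:
Slc2a2, chr2:113540123-113540148: ttgctcctctCACCTGtccccatccc
Pfkl, chr20:10663722-10663747: ggtaggatcaCACCTGgggagtctca
Aldoa, chr1:190837599-190837620: cactgcaccaCAGGTGggccgc
Mpc2, chr13:80261217-80261242: acctctttagCACCTGttgccatgac
Pdhx, chr3:109886805-109886830: gctctccagtCAGGTGaggagcgtgc
Mdh2, chr12:26543831-26543856: atcgcgagatCAGGTGgctctggaca
Glud1, chr16:9646450-9646475: gcaccaagccCACCTGcgagtgcgcg
Vhl, chr4:148328027-148328052: tcccgcccacCACCTGggaccctggc
None of the 7 members with the letters passed the test, which 1.05% of all genes passed. So few genes do not make this a result about the letters. Their log2 fold changes were -0.08 for Slc2a2, 0.14 for Pfkl, -0.02 for Aldoa, -0.14 for Mpc2, -0.07 for Pdhx, -0.02 for Mdh2 and -0.14 for Glud1.

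Glucose entry showed little difference. Slc2a2 had 31580, 32509, 37655, 33477 and 35366 scaled counts in siCtrl 1 to 5 and 30581, 30917, 33488, 33440 and 32546 in siScrt1 A to E. The groups overlapped at a log2 fold change of -0.08 (SE 0.084, adjusted p = 0.768, limma). Slc2a2 made up 98.8% ± 0.263 of the summed scaled TPM of Slc2a1 and Slc2a2 in siCtrl and 98.7% ± 0.214 in siScrt1 (SD, 5 libraries each).

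The upper glycolytic enzymes turn hexose phosphate into triose phosphates. Aldoa, an aldolase, was the most abundant of the 6, with 7900, 8798, 11212, 8820 and 9522 scaled counts in siCtrl and 7847, 10069, 9475, 8857 and 9309 in siScrt1 (log2 fold change -0.02). The triose phosphate isomerase Tpi1 had the lowest p of the 6, with 1379, 1272, 1723, 1165 and 1442 in siCtrl and 1098, 1269, 1237, 1146 and 1359 in siScrt1 (log2 fold change -0.18, SE 0.098, limma adjusted p = 0.527). The groups overlapped for both, and Tpi1 reads were shared with other sequences in every library. Of the phosphofructokinase transcripts, 55.0% ± 3.67 were Pfkm, 32.4% ± 2.61 Pfkl and 12.5% ± 2.07 Pfkp in siCtrl, and 53.8% ± 1.75, 35.0% ± 1.71 and 11.2% ± 1.70 in siScrt1 (SD, 5 libraries each, shares of scaled TPM). The isomerase Gpi averaged 72.9 scaled TPM in siCtrl and 75.5 in siScrt1. The log2 fold changes of the 6 enzymes ran from -0.18 to 0.14.

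In lower glycolysis, which yields pyruvate, Pkm had 21046, 16825, 27822, 25921 and 26210 scaled counts in siCtrl and 20278, 25196, 29229, 24934 and 25846 in siScrt1. The lowest library was siCtrl 2, the lowest of siScrt1 was A, and the groups overlapped (log2 fold change 0.10, SE 0.142, limma adjusted p = 0.833). Phosphoglycerate kinase, Pgk1, had 1622, 1522, 1940, 1456 and 1586 in siCtrl and 1472, 1464, 1467, 1399 and 1452 in siScrt1. The 5 siScrt1 values lay within 1399 to 1472, and all but the lowest siCtrl library were above them (log2 fold change -0.16, SE 0.073, limma adjusted p = 0.454). Gapdh averaged 382 scaled TPM in siCtrl and 371 in siScrt1, Eno1 320 and 320, Pgam1 142 and 142, and Eno2 14.0 and 13.4. Reads of Gapdh, Eno1, Eno2 and Pkm were shared with other sequences in every library. The log2 fold changes of the 6 genes ran from -0.16 to 0.10, and 3 of the 6 were negative.

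Pyruvate enters mitochondria through Mpc1 and Mpc2 and is carboxylated to oxaloacetate by pyruvate carboxylase (Pcx). Mpc2, at 79.9 ± 13.4 scaled TPM in siCtrl (SD, n = 5) the most abundant of the 3 and the one with the lowest p, had 232, 277, 281, 186 and 217 scaled counts in siCtrl and 235, 204, 199, 220 and 216 in siScrt1. The siCtrl libraries spanned the whole siScrt1 range (log2 fold change -0.14, SE 0.115, limma adjusted p = 0.705). Mpc1 averaged 56.7 scaled TPM in siCtrl and 54.6 in siScrt1, and Pcx 54.9 and 56.4. Pdha1, which competes with Pcx for pyruvate, was at 43.1 and 40.8 scaled TPM.

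The PDH kinases inactivate the complex by phosphorylating Pdha1, and Pdp1 reverses this. Pdk1 had the lowest p of the 4, with 213, 218, 189, 217 and 200 scaled counts in siCtrl and 245, 214, 211, 289 and 249 in siScrt1. The 3 highest siScrt1 libraries, A, D and E, were above all siCtrl libraries, and the other two lay within the siCtrl range (log2 fold change 0.21, SE 0.099, limma adjusted p = 0.451). Pdk3 was the most abundant kinase, with 685, 801, 830, 650 and 730 in siCtrl and 727, 619, 699, 695 and 625 in siScrt1 (log2 fold change -0.13, SE 0.081, limma adjusted p = 0.588). Its transcripts of 2209 and 2078 bases had log2 fold changes of 0.27 and -0.28, with adjusted p-values of 0.707 and 0.234 (limma, across transcripts). Pdk2 averaged 18.6 scaled TPM in siCtrl and 21.3 in siScrt1, and Pdp1 4.47 and 4.80. Of the Pdk1 to Pdk4 transcripts, Pdk3 made up 43.6% ± 3.36 in siCtrl and 38.5% ± 3.83 in siScrt1 (SD, 5 libraries each).

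The early TCA cycle enzymes run from citrate synthase (Cs) to the isocitrate dehydrogenases. Cs had the lowest p, with 922, 939, 1046, 1064 and 975 scaled counts in siCtrl and 900, 984, 855, 928 and 826 in siScrt1 (log2 fold change -0.14, SE 0.068, limma adjusted p = 0.478). Idh2, which makes NADPH, was the most abundant, with 2166, 1812, 2069, 2402 and 2089 in siCtrl and 1945, 2238, 1954, 2217 and 2087 in siScrt1. The ranges overlapped for both, and the log2 fold change of Idh2 was -0.01. The subunits of the NAD-dependent isocitrate dehydrogenase averaged 21.5 scaled TPM for Idh3a, 29.8 for Idh3b and 58.9 for Idh3g in siCtrl, and 21.6, 28.3 and 60.8 in siScrt1.

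After the OGDH complex, succinyl-CoA ligase, fumarase and malate dehydrogenase follow. Fumarase, Fh, had 1463, 1934, 2193, 1453 and 1527 scaled counts in siCtrl 1 to 5 and 1243, 1474, 1468, 1140 and 1090 in siScrt1 A to E. The siScrt1 libraries B and C overlapped with the 2 lowest siCtrl libraries, and siCtrl 2 and 3 were well above the rest. In scaled TPM, Fh was at 76.5 ± 14.6 in siCtrl and 57.5 ± 8.07 in siScrt1 (SD, 5 libraries each). Its log2 fold change of -0.41 (SE 0.128) did not pass after adjustment (limma adjusted p = 0.207, unadjusted p = 0.00716). The deposited table numbers the libraries of both groups 1 to 5, with siScrt1 A to E as 1 to 5. Deviations from the group means correlated positively in each same-number pair. For siScrt1 B the correlation was higher with siCtrl 3 (0.167) than with its same-number library siCtrl 2 (0.131). With this number as a block, Fh passed the test across genes (log2 fold change -0.41, limma adjusted p = 0.00878), and its single transcript did not pass across transcripts (limma adjusted p = 0.0679 with the block). Fh was lower in siScrt1 in 5 of 5 same-number pairs, by 0.23 to 0.58 on the log2 scale. Under the block 2 of the 43 members passed, Dld and Fh, where 2.00% of all genes did, and the adjusted p of Dld was 0.00125.

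Mdh1 had 12676, 14576, 16575, 13072 and 13479 scaled counts in siCtrl and 12140, 14330, 13600, 14160 and 14258 in siScrt1, with a log2 fold change of -0.04. It made up 88.9% ± 0.769 of the malate dehydrogenase transcripts in siCtrl and 88.7% ± 1.14 in siScrt1, the rest being the mitochondrial Mdh2 (SD, 5 libraries each). Of the β subunits of succinyl-CoA ligase, the ATP-forming Sucla2 held 71.0% ± 3.54 in siCtrl and 70.2% ± 3.09 in siScrt1, and the GTP-forming Suclg2 the rest (SD, 5 libraries each). Suclg1, their shared α subunit, averaged 48.2 scaled TPM in siCtrl and 48.0 in siScrt1. All 6 genes of these steps had negative log2 fold changes, from -0.41 to -0.01, and none passed without the block.

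Glutamate dehydrogenase (Glud1), the shuttle enzyme Gpd2, the malic enzymes Me1 and Me3, the citrate carrier Slc25a1 and ATP citrate lyase (Acly) link the cycle to amino acids, cytosolic NADH and NADPH, and lipid precursors. Glud1 had 3412, 3295, 3716, 3471 and 3778 scaled counts in siCtrl and 3167, 2828, 3400, 3272 and 3403 in siScrt1. Its groups overlapped, and it was lower in siScrt1 in 5 of 5 same-number pairs by 0.09 to 0.22 on the log2 scale (log2 fold change -0.14, SE 0.068, limma adjusted p = 0.478, and 0.216 with the block). Acly, the most abundant, had 26720, 27226, 31146, 31718 and 30574 in siCtrl and 25837, 29679, 31452, 30960 and 30886 in siScrt1 (log2 fold change 0.01). Me1 averaged 149 scaled TPM in siCtrl and 129 in siScrt1 (log2 fold change -0.22, SE 0.107, limma adjusted p = 0.484). Gpd2 averaged 14.5 in both groups, Slc25a1 18.5 and 19.0, and Me3 5.09 and 5.39.

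Across the same-number pairs, 10 of the 43 members were lower in siScrt1 in all 5 pairs, and no member was higher in all 5. They were Slc2a2, Pfkp, Tpi1, Pgk1, Pdhb, Dld, Dlst, Fh, Glud1 and Me1. Over all genes tested, 9.00% were lower and 8.01% higher in all 5 pairs. With the block, 10 of the 43 members had an unadjusted p under 0.05, 9 of them lower, beside 16.1% of all genes. After adjustment over all genes Dld and Fh were below 0.05.

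**Figure D4:**
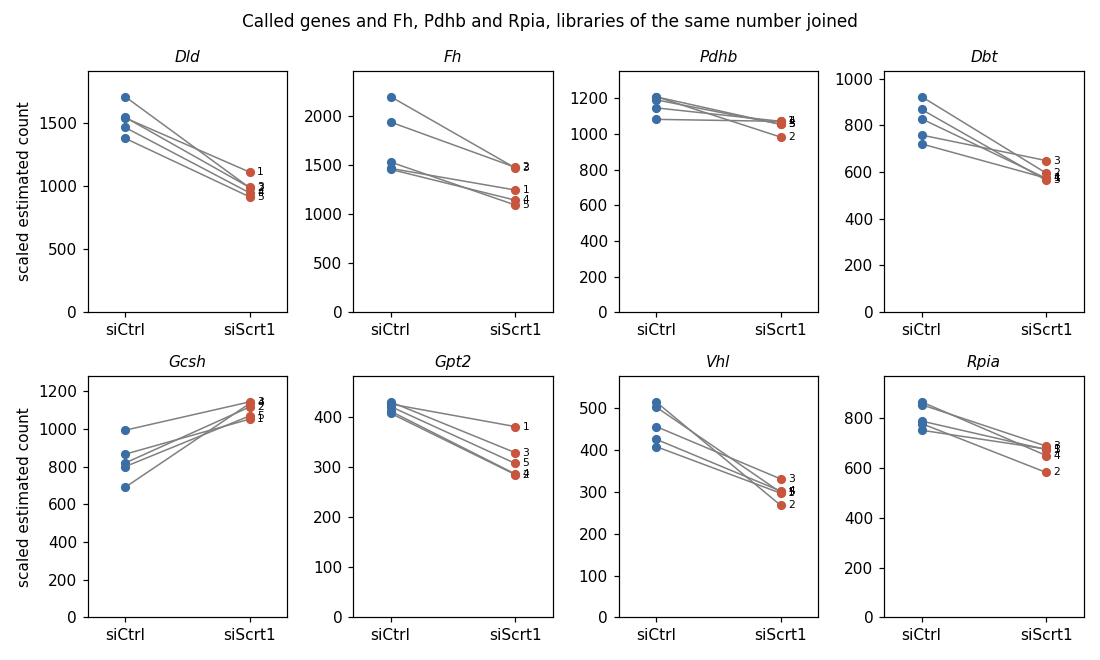
Scaled counts of Dld, Fh, Pdhb, Dbt, Gcsh, Gpt2, Vhl and Rpia, with siCtrl on the left, siScrt1 on the right and libraries of the same number joined by a line; axes start at 0. Every line falls except for Gcsh, where every line rises.

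Libraries of a group differed in the members taken as a set. In siCtrl, library 3 was the highest of its group for 27 of the 43 members, and its median deviation from the group mean was 0.16 (log2) over the members and 0.01 over all genes. For the 12 glycolytic genes the median deviation of siCtrl 3 was 0.26 and that of siCtrl 2 was -0.19. In siScrt1, library A was the lowest for 21 members, with a median deviation of -0.07 over the members and -0.14 over the glycolytic genes. Its same-number library siCtrl 1 was the lowest of siCtrl for 16 members, with median deviations of -0.10 and -0.0044. siCtrl 2 was the lowest for 12, with a median deviation of -0.07 over the members. Their part in the results above was not tested beyond leaving out each library, and Dld passed without each of the 10 in turn (log2 fold change -0.67 to -0.59, limma adjusted p = 0.00131 to 0.00789). Fh did not pass without any 1 of the 10 libraries, with adjusted p from 0.165 to 0.417 in the fits without the block (limma).

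**Figure D5:**
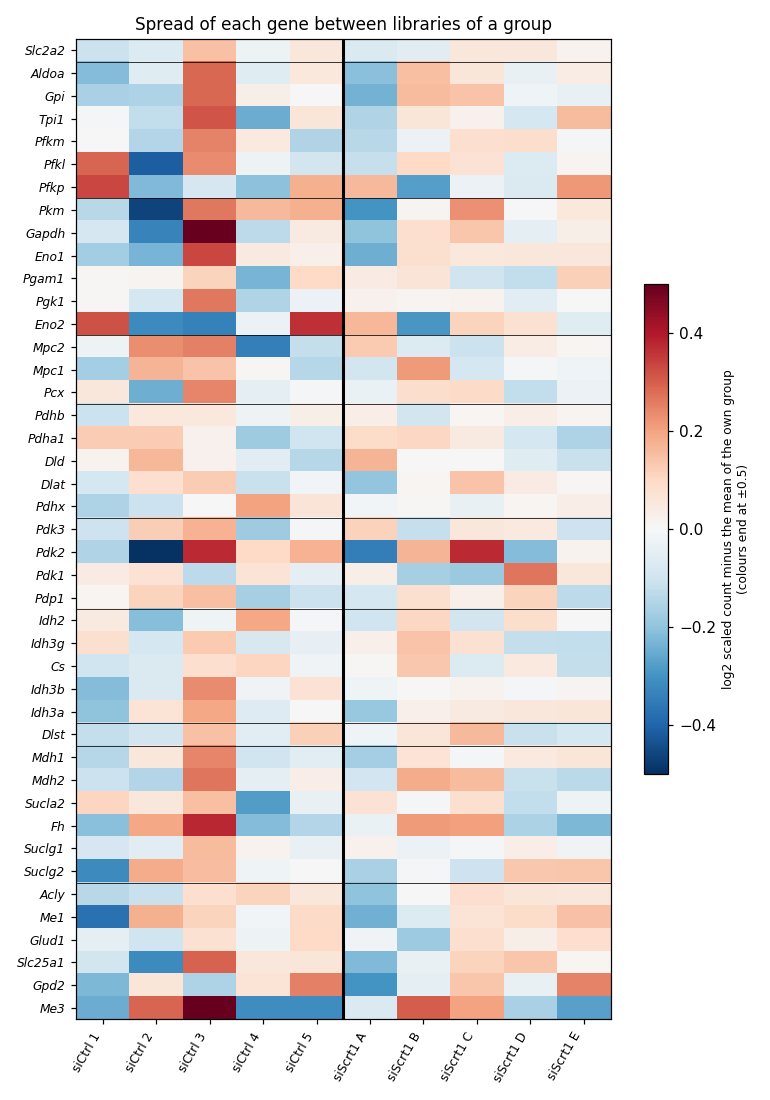
Log2 scaled count of each member in each library minus the mean of its own group, from blue (lower) to red (higher), with groups separated by the vertical line and steps by thin lines. siCtrl 3 is red for most members, and siScrt1 A is the lowest of its group for 21 of the 43.

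The neighbouring pathways were read from lists of 81 further genes, of which 78 were found and 64 could be tested. Of these 64 genes, 3 fell and 1 rose (limma, adjusted p under 0.05), beside the 1.05% of all genes given above. The lists were drawn up with earlier results of these data known, so their counts are descriptions. The median log2 fold change was 0.02 over the 64 genes.

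Among the other complexes that use Dld and the genes for attaching lipoyl groups, 1 of the 9 tested genes fell and 1 rose. Dbt had 721, 923, 759, 828 and 869 scaled counts in siCtrl and 574, 596, 650, 573 and 565 in siScrt1, with no overlap (log2 fold change -0.47, SE 0.077, limma adjusted p = 0.0103). Gcsh, the lipoyl-carrying H protein of glycine cleavage, had 865, 819, 993, 690 and 799 in siCtrl and 1051, 1116, 1143, 1134 and 1069 in siScrt1, also with no overlap (log2 fold change 0.41, SE 0.085, limma adjusted p = 0.0387). Gcsh lost its call without 9 of the 10 libraries in turn, with adjusted p up to 0.118, and its transcript did not pass across transcripts (adjusted p = 0.0851). Bckdha and Bckdhb averaged 11.0 and 15.7 scaled TPM in siCtrl and 11.7 and 14.3 in siScrt1. The lipoyl synthase Lias was at 6.82 and 6.45, and the glycine decarboxylase Gldc was under 0.03 in both groups.

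Of the genes by which pyruvate leaves for lactate or alanine, 1 of 5 tested fell. Gpt2, the mitochondrial alanine aminotransferase, had 426, 408, 430, 412 and 421 scaled counts in siCtrl and 381, 285, 329, 286 and 308 in siScrt1, with no overlap (log2 fold change -0.41, SE 0.085, limma adjusted p = 0.0409). Its call was lost without 9 of the 10 libraries in turn, with adjusted p up to 0.132. The fall lay in the shorter of its transcripts, of 2112 bases, at a log2 fold change of -0.81 (adjusted p = 0.0193 across transcripts, limma), while the other, of 2370 bases, had 0.09. Gpt2 reads were shared with other sequences in every library. Ldhb, the most abundant gene tested after Gpt2, averaged 11.7 scaled TPM in siCtrl and 11.1 in siScrt1, and Ldha and Slc16a1, 2 genes held low in β-cells, averaged 1.11 and 1.22 in siCtrl and 1.09 and 1.17 in siScrt1.

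In the list for the oxygen response, whose targets include glycolytic genes, 1 of 11 tested genes fell. Vhl, the substrate receptor of the ubiquitin ligase that degrades hypoxia-inducible factor, had 408, 515, 456, 425 and 502 scaled counts in siCtrl and 297, 268, 331, 302 and 299 in siScrt1. The groups did not overlap, with a log2 fold change of -0.62 (SE 0.086, adjusted p = 0.00475, limma). Ndrg1, the most abundant of the list, averaged 263 scaled TPM in siCtrl and 266 in siScrt1, and Vegfa 196 and 212, neither passing the test. At an unadjusted p under 0.05 (limma) there were 3 of the 11 genes, beside 11.1% of all genes. These were Vhl, Hif1a and Ankrd37, all lower in siScrt1. Hif1a (log2 fold change -0.16, limma adjusted p = 0.296) and Ankrd37 (-0.40, limma adjusted p = 0.391) did not pass after adjustment. The median log2 fold change of the 11 genes was 0.0023.

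The other lists held no call (limma, adjusted p under 0.05). Of the 9 glycolytic isoforms and regulators tested, the lowest p was that of Aldoc, a low-abundance aldolase at 1.13 scaled TPM in siCtrl and 1.75 in siScrt1 (log2 fold change 0.64, SE 0.197, adjusted p = 0.204, limma). The pyruvate kinase Pklr averaged 33.8 in siCtrl and 38.7 in siScrt1 (log2 fold change 0.24, SE 0.084, limma adjusted p = 0.283). Pfkfb2, the most abundant of that list, averaged 104 in siCtrl and 93.6 in siScrt1 (log2 fold change -0.14, limma adjusted p = 0.321). Tigar, a phosphatase that lowers the activator of phosphofructokinase, passed with the block only (log2 fold change -0.31, limma adjusted p = 0.455, and 0.0391 with the block). Rpia, the isomerase that makes ribose phosphate, did not reach the threshold and passed with the block (log2 fold change -0.30, SE 0.068, limma adjusted p = 0.0565, and 0.0427 with the block). Its scaled counts were 752, 779, 854, 866 and 789 in siCtrl and 676, 582, 688, 650 and 674 in siScrt1, without overlap. Taldo1, the most abundant pentose phosphate gene, averaged 80.3 scaled TPM in siCtrl and 86.5 in siScrt1.

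The TCA cycle enzymes outside the members moved little. The 4 succinate dehydrogenase subunits ranged from 45.2 (Sdhd) to 66.1 (Sdhc) scaled TPM in siCtrl and from 42.9 to 62.6 in siScrt1, and Me2 had the lowest p of the 7 genes tested (log2 fold change 0.08, limma adjusted p = 0.697). Of the 8 shuttle enzymes and carriers, Got2, the mitochondrial aspartate aminotransferase, was both the most abundant and the one with the lowest p, at 55.3 and 47.7 scaled TPM (log2 fold change -0.21, SE 0.091, limma adjusted p = 0.406). Slc37a4 and G6pc3 of the glucose phosphatase system had log2 fold changes of 0.04 and 0.09. Pdpr, the regulatory subunit of the PDH phosphatase, was at 6.40 and 7.14 scaled TPM (log2 fold change 0.15, limma adjusted p = 0.587).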

How the data were processed

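The authors trimmed reads with Trimmomatic, checked them with FastQC, quantified them with kallisto on the rat transcriptome and analysed them with Sleuth (versions not given in the sources used here). The deposited table gives estimated counts and TPM for 31715 transcripts in each of 10 libraries, both scaled between libraries by the authors, so they are a relative signal and not raw counts; 9363 rows without values were left out. Division by the value of 1 read returned whole library totals, and 50.3% of transcript and 76.2% of gene values above 0 came out whole (within 0.01 reads), the rest being shared between transcripts. A count test was therefore not used as the main test, and limma-voom on the recovered reads was run only as an alternative.

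Values were summed per gene and tested as log2(scaled count + 0.5) with limma 3.58.1 in R 4.3.3 (eBayes with trend, group only), on 12941 of 23918 genes with a level equal to 10 reads at median depth in at least 5 libraries and 15 reads in all. The same test was applied to 17576 transcripts. P-values were adjusted over all genes or transcripts (Benjamini-Hochberg). Fold changes on this scale understate changes of low genes. The fits were tested on simulated data. Ratios of Dld to its partners were compared with an exact permutation test, in Python 3.11.15 with pandas 2.3.3, and figures drawn with matplotlib 3.10.9.

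Groups came from the genotype labels. The deposited table also numbers the libraries 1 to 5 in each group. Deviations from the group means correlated at 0.131 to 0.351 within the 5 same-number pairs and at -0.179 to 0.167 between other libraries. The numbers were therefore taken to pair the libraries, though the labels do not say what they mark. P-values and intervals come from the fit by group alone, which does not use this pairing, unless the block is named. A fit with the number as a block is given where it changes a call.

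The members and lists were chosen with earlier results of these data known. Values in every library are given for Scrt1, Dld, the PDH and OGDH partners, members that passed, and in each step the most abundant member and the one with the lowest p. Of the other lists, called genes are named, or else the gene with the lowest p, and the most abundant gene reported. Some genes of these lists are not reported here and were left out of the lists' counts. Further genes were named after their values were seen.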

Additional observations from a re-analysis of the deposited data

Results flagged for a closer look

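In 120 groups of 5 libraries examined, over the members and the other genes named by the rule, 7 held a library whose distance from its neighbour exceeded Dixon's 95% limit for 5 values (a gap of 0.71 of the range). Chance flags about 1 group in 20, or 6 here.

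Among the members, siScrt1 A was low for Eno1, with 6628 scaled counts against 8162 to 8296 in the other siScrt1 libraries, and for Idh3a, with 687 against 798 to 817. siScrt1 B was high for Mpc1, with 699 against 567 to 599, and low for Pdhb, with 982 against 1053 to 1071. For Pgk1, siScrt1 D had 1399 against 1452 to 1472. Of the neighbouring genes, Slc2a1 was high in siScrt1 B, with 564 against 386 to 428. Ndrg1 was low in siScrt1 A, with 9592 against 11616 to 12288. None of these genes had passed the test between the groups.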

How the results depend on the processing

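The call of Dld kept its direction and passed under all 22 alternatives to the gene fit, at a log2 fold change of -0.63 to -0.60 with all libraries. These included leaving out both libraries numbered 1, or both numbered 4, which were chosen after seeing the data. The replicate block raised the number of genes called from 136 to 259 and of members called from 1 to 2, and it changed the calls of Fh, Rpia and Tigar and of no other named gene. Leaving out each library gave 62 (without siScrt1 D) to 133 genes and 1 member throughout. It gave 2 to 3 genes of the neighbouring lists in place of 4 (Dbt and Vhl throughout). The partners that passed the permutation test against Dld numbered 6 to 7 in place of 7. As Dld had been singled out for its fall, these partner counts are not independent evidence of it. Without the libraries numbered 4, 25 genes and 1 list gene (Vhl) passed, and Dbt (adjusted p = 0.115) and Scrt1 (0.0621) did not; 8 libraries were left. Sign changes within pairs left 0 partners, since 5 pairs cannot pass. Without a filter Gpt2 missed the threshold (adjusted p = 0.0513).

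Log2 fold changes near 0 changed sign for some genes that had no call. Leaving out each library gave -0.063 to 0.039 for Idh2, -0.021 to 0.064 for Acly, -0.14 to 0.017 for Sdhc, -0.026 to 0.074 for Ndrg1, -0.011 to 0.18 for Pkm, -0.071 to 0.055 for Aldoa, -0.071 to 0.025 for Mdh1, -0.080 to 0.0055 for Dlat and -0.028 to 0.13 for Slc2a1. Idh2 was at 0.0057 with upper-quartile scaling, 0.026 without the libraries numbered 1 and 0.016 without those numbered 4. Slc37a4 was at -0.0018 without those numbered 4. The cause was not tested. edgeR was not run, since not nearly all gene values were whole. The lowest read number of a member in a library was 104, for Me3, whose log2 fold change had an SE of 0.186. Pdp1, with 134 reads in its lowest library, had an SE of 0.095. The part of depth in the precision of such low members was not tested.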
